A study of Mus musculus with 9 samples.

Results

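The cyclin D-CDK4/6 module was read in mouse acute myeloid leukemia cells as 10 genes: the D cyclins Ccnd1, Ccnd2 and Ccnd3, the kinases Cdk4 and Cdk6, the INK4 inhibitors Cdkn2a, Cdkn2c and Cdkn2d, and the CIP/KIP inhibitors Cdkn1a and Cdkn1b. They were taken by gene name from the 55536 genes of the expression table, and each name matched 1 row. The table holds 9 bulk RNA-seq libraries, 3 per group. The groups are AML-WT-c-kit- (WT c-kit- in what follows), AML-WT-c-kit+ (WT c-kit+) and, for the other genotype, AML-IRF7-/--c-kit+ (the libraries labelled IRF7-/-). Values are TPM, which are transcript shares scaled by gene length and library total, so levels of different genes can be compared.

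All 3 groups were GFP+ leukemia cells that carried the MLL-AF9 fusion from an MSCV-MLL-AF9-GFP retrovirus, introduced into c-kit+ cells of either WT or IRF7-/- mice, in which exons 2 and 3 of Irf7 are replaced by a PGK-beta-geo cassette. The genotype labels read control-GFP overexpression for the WT groups and IRF7-/--GFP overexpression for the other. Each C57BL/6J host, 6 to 8 weeks old and not irradiated, received 1000000 cells, and leukemia cells were sorted from bone marrow on day 18 by c-kit, the receptor that Kit encodes. The labels do not say whether the 3 libraries of a group came from separate mice, so the tests measure only the spread between these libraries. Because the fusion is retroviral, the model rests on transduced cells, and the 3 groups share it. No c-kit- group of the IRF7-/- genotype was analysed here.

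D cyclins are made in response to growth signals, bind CDK4 or CDK6 and start the phosphorylation of the retinoblastoma protein RB, which frees E2F factors to switch on the genes of DNA replication. INK4 proteins bind CDK4 and CDK6 themselves and keep the cyclin out. CIP/KIP proteins bind whole cyclin-CDK complexes, block CDK2 and can help D cyclin complexes to assemble. In the blood system CDK6 and cyclin D3 are much used by progenitors, and CDK6 is a known dependency of MLL-rearranged leukemia.

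The label of the knockout was checked on Irf7 itself, which encodes interferon regulatory factor 7. Its level was 22.3 to 32.3 TPM in WT c-kit-, 3.36 to 5.31 TPM in WT c-kit+ and 5.97 to 12.8 TPM in libraries labelled IRF7-/-. It was thus higher in every library labelled as a knockout than in every WT c-kit+ library, with a log2 fold change of 0.89 (standard error, SE, 0.27, limma adjusted p = 0.0321). This goes against the label, so every direction given for these libraries holds only as far as their label does. The table gives 1 value per gene and does not show which exons were read, and the study's own check of IRF7 by qRT-PCR and Western blot was not analysed here. Kit followed the sort, at 0.52 to 3.03 TPM in WT c-kit-, 50.7 to 58.5 TPM in WT c-kit+ and 70.3 to 85.7 TPM in the labelled libraries.

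A list of 15 genes of granulocyte and monocyte maturation summed to 7391 to 33174 TPM in WT c-kit-, 58422 to 113677 TPM in WT c-kit+ and 2270 to 3180 TPM in libraries labelled IRF7-/-. The sum follows its most abundant genes, such as S100a9 at 39669 TPM in WT c-kit+ by group mean. Between the WT populations 5 of the 15 were higher in WT c-kit+ and 4 lower, against 14.0% and 27.6% of all genes. Among the lower, Csf1r went from 399 to 50.9 TPM. The 10 most abundant genes took 13.1 to 17.3% of TPM in WT c-kit+ and 9.39 to 10.3% elsewhere. Since TPM are shares of a library, this bears on every other gene there: the median log2 difference of all genes from WT c-kit+ to the labelled libraries was 0.12 as deposited and between -0.02 and 0.03 under 3 other scalings. Libraries that stood apart by the maturation sum were WT c-kit- replicate 3 with 33174 TPM, against 7391 and 8961 in the other two, and WT c-kit+ replicate 2 with 58422, against 87060 and 113677. Markers of other cell types summed to at most 1.66 TPM for 7 T and NK cell genes, 11.7 for 7 erythroid, 13.0 for 5 megakaryocyte, 38.1 for 5 B cell, 59.8 for 6 stromal and endothelial and 97.6 for 6 mast cell and basophil genes. Among the defining ones, Pf4 was listed at 0 in WT c-kit-, Ppbp and Cma1 in WT c-kit+, Ncr1 and Fcer1a in the labelled libraries, and Tpsb2 in all 3 groups. Single markers of other types moved with the groups: Gp9 (megakaryocyte) by 2.60 and Lepr (stroma) by -1.11 between the WT populations, Lepr by 0.85, Cxcl12 (stroma) by 0.97 and Itga2b (megakaryocyte) by 0.83 between the c-kit+ groups, and Mcpt8 (basophil) by 1.48 from WT c-kit- to the labelled libraries. Their part in the members' values was not tested.

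Differences between groups were taken from limma on log2(TPM + 1), fitted over all genes that reached 1 TPM in 3 or more of the 6 libraries of a comparison. All 10 members passed this filter in all 3 comparisons. A member counts as changed at a Benjamini-Hochberg adjusted p under 0.05, and as past both thresholds when its log2 fold change was also at least 1 in size. In these bulk samples, fewer cells of a type and less RNA per cell cannot be told apart.

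In WT c-kit-, Ccnd3 had the highest level of the 10 members at 346 ± 46.5 TPM (SD, n = 3), with Cdk6 at 164 ± 12.8 and Cdk4 at 147 ± 15.3. In WT c-kit+, Cdk6 led at 297 ± 10.2 TPM, but its libraries overlapped those of Ccnd3 at 269 ± 49.8. In the libraries labelled IRF7-/-, Cdk4 at 243 ± 3.40 TPM and Cdk6 at 236, with libraries from 225 to 245, overlapped each other, and both were above Ccnd3 at 183 ± 12.3 in every library. Ccnd1, Ccnd2 and Cdkn2a were the 3 lowest members in each group. In WT c-kit-, Cdkn2d, Cdkn1a, Cdkn2c and Cdkn1b followed the kinases at 97.7, 93.7, 88.5 and 80.6 TPM, and each overlapped the next. In WT c-kit+ the order below Cdk4 was Cdkn2c, Cdkn2d, Cdkn1b and Cdkn1a, where only Cdkn1b and Cdkn1a overlapped. In the labelled libraries Cdkn2c dropped below Cdkn2d, Cdkn1b and Cdkn1a, and no 2 neighbours among these 4 overlapped.

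**Figure D1:**
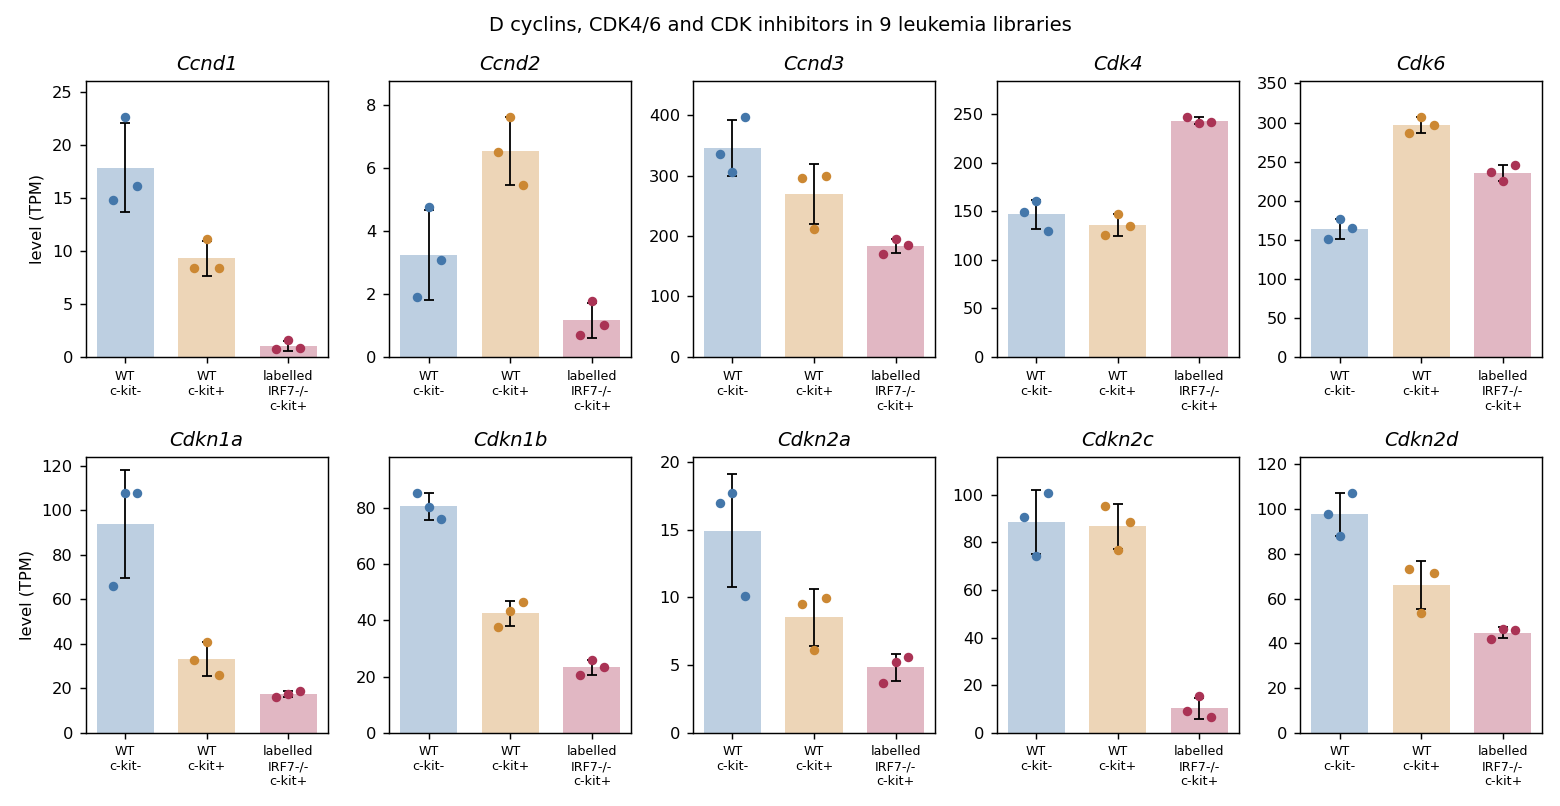
Level of each member in TPM on the y axis, each panel with its own scale from 0, in WT c-kit- (blue), WT c-kit+ (orange) and the libraries labelled IRF7-/- (red). Points are libraries, bars are means and error bars are the SD over 3 libraries; Cdk4 is the member whose labelled libraries all lie above both WT groups, at 241 to 247 TPM.

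The first comparison asks how the sorted c-kit+ population differed from the c-kit- population of the WT leukemia. The paper takes c-kit as a marker of primitive leukemia cells, and enrichment for such cells was not tested here. Of the 15 maturation genes, 5 were higher and 4 lower in WT c-kit+ (14.0% and 27.6% of all genes). Of the 10 members, Cdk6 and Ccnd2 were higher in WT c-kit+ and Ccnd1, Cdkn1a, Cdkn1b and Cdkn2d were lower, while Ccnd3, Cdk4, Cdkn2a and Cdkn2c did not pass the test. Over all 13261 genes tested, 14.0% were higher and 27.6% were lower at the same threshold, so the members' counts are close to the background. Only Cdkn1a passed both thresholds, where 9.61% of all genes did so as lower. The 2 groups did not overlap for 8 of 10 members, against 54.4% of all genes, and the members' median log2 difference was -0.47, against -0.08 for all genes.

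The second comparison sets the c-kit+ cells of the 2 genotype labels against each other. All 10 members changed, with Cdk4 higher and the other 9 lower in the libraries labelled IRF7-/-. Among the 13238 genes tested, 31.9% were higher and 16.1% were lower in the deposited scaling. The split of all genes depends on the scaling: past both thresholds 834 were higher and 714 lower as deposited, against 698 and 810 under median-ratio scaling, 718 and 851 with the most abundant genes left out and 723 and 784 under quantile normalization. The members were called 1 higher and 9 lower in each of these. Ccnd1, Ccnd2 and Cdkn2c passed both thresholds as lower, as did 5.39% of all genes. No member overlapped between the groups, against 59.1% of all genes without overlap, and the median log2 difference was -0.77 for the members and 0.12 for all genes. Leaving out 1 library at a time left 7 to 9 members lower, with Cdk4 higher each time.

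Set against WT c-kit-, the labelled libraries had Cdk4 and Cdk6 higher and the other 8 members lower, where 30.7% of 13510 genes were higher and 28.7% lower. Past both thresholds were Ccnd1, Cdkn1a, Cdkn1b, Cdkn2a, Cdkn2c and Cdkn2d, all lower, as were 11.9% of all genes. The groups did not overlap for any member, against 67.1% of all genes, and the median was -1.27 for the members and 0.03 for all genes. Ccnd1 fell furthest, at -3.21 (SE 0.22, limma adjusted p = 5.18e-05) or 17.0 times less by mean TPM, and Cdkn2c followed at -3.06 (SE 0.28, limma adjusted p = 1.46e-04). Cdk4 rose by 0.73 (SE 0.08, limma adjusted p = 3.42e-04) and Cdk6 by 0.52 (SE 0.07, limma adjusted p = 8.53e-04). The 3 comparisons share libraries and are not independent of each other.

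**Figure D2:**
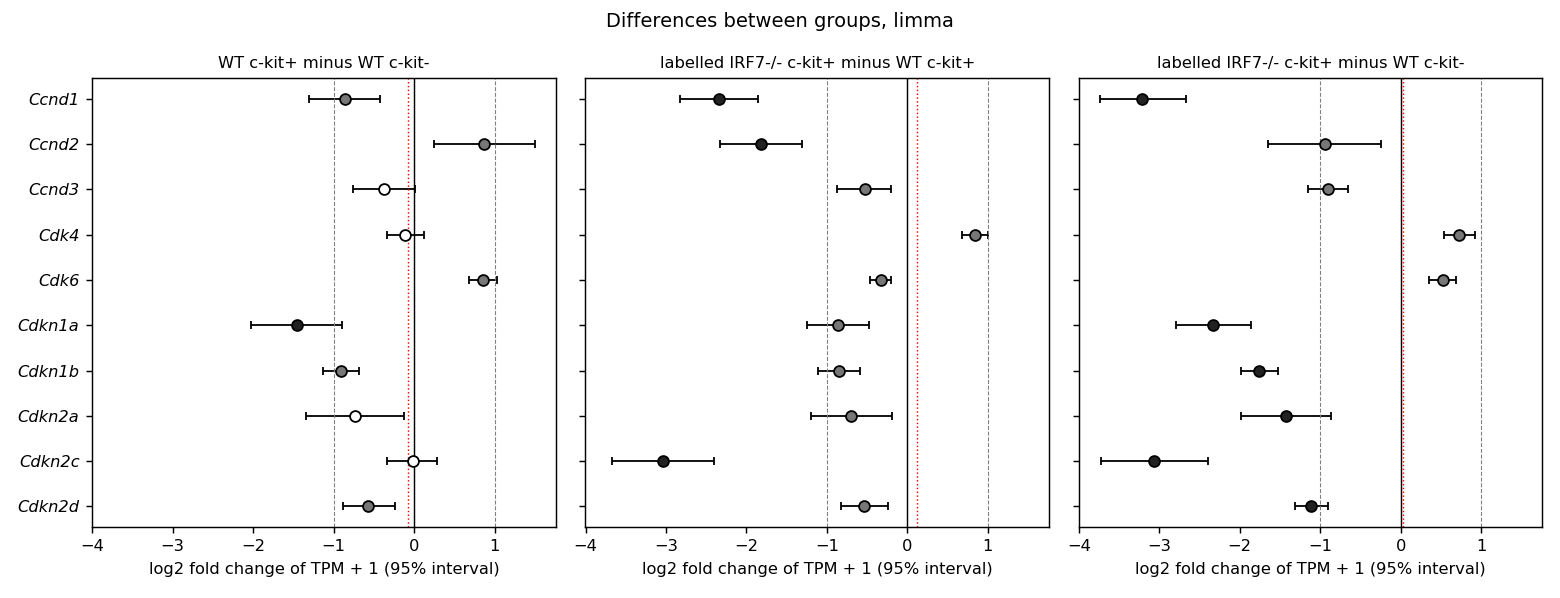
Log2 fold change of TPM + 1 on the x axis for each member in the 3 comparisons, with 95% intervals from limma over 6 libraries each. Filled black points pass both thresholds, grey points the adjusted p only and open points neither; dashed lines mark a log2 fold change of 1 in either direction and the red dotted line the median of all genes, which is 0.12 in the middle panel where 9 of 10 members lie below 0.

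Among the D cyclins, Ccnd3 made up nearly all of the transcript pool: 91.8 to 95.4% of summed D cyclin TPM in WT c-kit-, 91.8 to 95.6% in WT c-kit+ and 98.3 to 99.2% in the labelled libraries. Ccnd3 is the D cyclin most used by blood progenitors. It stood at 335, 306 and 397 TPM in WT c-kit- replicates 1, 2 and 3, at 296, 211 and 299 TPM in WT c-kit+, and at 171, 195 and 184 TPM in libraries labelled IRF7-/-. The labelled libraries were below every WT library, and WT c-kit+ replicate 2, the one with the low maturation sum, was closest to them. From WT c-kit+ to the labelled libraries the log2 fold change was -0.53 (SE 0.14, limma adjusted p = 0.0196). This call was lost, with adjusted p from 0.0531 to 0.0654 and log2 fold changes from -0.54 to -0.45, without WT c-kit+ replicate 1 or 3 or without labelled replicate 1 or 3. Against WT c-kit- it was -0.90 (SE 0.10, limma adjusted p = 4.16e-04). Between the WT populations it was -0.37 with a 95% interval of -0.76 to 0.01 (limma adjusted p = 0.109).

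Ccnd1, the D cyclin that many growth factor pathways induce, was low in WT c-kit- and WT c-kit+ and close to 1 TPM in the labelled libraries. Its values were 14.85, 22.7 and 16.2 TPM in WT c-kit-, 8.39, 11.2 and 8.37 TPM in WT c-kit+, and 0.71, 1.62 and 0.83 TPM in libraries labelled IRF7-/-. The 3 groups did not overlap, and the highest value of each group was in replicate 2. Its log2 fold change was -0.86 (SE 0.19, limma adjusted p = 0.00995) between the WT populations and -2.34 (SE 0.20, limma adjusted p = 3.07e-04) from WT c-kit+ to the labelled libraries, which had 8.84 times less by mean TPM. That difference was the 181st most negative of 13238. With a pseudocount of 0.1 in place of 1 it was -3.10, since the value added to TPM shrinks the change of a gene at this level.

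Ccnd2 was the one D cyclin that was higher in WT c-kit+ than in WT c-kit-, where its values were 6.50, 7.62 and 5.46 TPM against 1.90, 4.75 and 3.08 TPM. In the labelled libraries it was 0.71, 1.79 and 1.00 TPM, below every WT library. The rise between the WT populations was 0.87 (SE 0.26, limma adjusted p = 0.0356), but the adjusted p was 0.0548 to 0.101 when any 1 library other than WT c-kit- replicate 2 was left out, with log2 fold changes of 0.63 to 0.98. The difference between the c-kit+ groups was -1.82 (SE 0.21, limma adjusted p = 9.54e-04) and kept an adjusted p of at most 0.00551 under each alternative run. Against WT c-kit- it was -0.94 (SE 0.30, limma adjusted p = 0.0303), and that call was lost without WT c-kit- replicate 2 or 3 or without labelled replicate 1 or 3, with adjusted p from 0.0709 to 0.0945 and log2 fold changes from -0.95 to -0.70.

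Cdk6, one of the 2 kinases that D cyclins activate, was higher in WT c-kit+ than in either other group. Its values were 151, 176 and 165 TPM in WT c-kit-, 287, 307 and 297 TPM in WT c-kit+, and 237, 225 and 245 TPM in libraries labelled IRF7-/-. No 2 groups overlapped, and the labelled libraries lay between the WT populations. The log2 fold change was 0.85 (SE 0.07, limma adjusted p = 1.76e-04) from WT c-kit- to WT c-kit+ and -0.33 (SE 0.06, limma adjusted p = 0.00337) from there to the labelled libraries. Both kept their direction and an adjusted p under 0.05 under each alternative run.

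Cdk4, the other D cyclin kinase, went the other way. It was 150, 160 and 130 TPM in WT c-kit-, 125, 147 and 135 TPM in WT c-kit+, and 247, 241 and 242 TPM in libraries labelled IRF7-/-. The WT populations overlapped and the labelled libraries were above both. From WT c-kit+ to the labelled libraries the log2 fold change was 0.84 (SE 0.07, limma adjusted p = 2.35e-04), and 0.72 above the median of all genes. Over the alternatives it ran from 0.69 to 0.90 with an adjusted p of at most 0.00261. Between the WT populations it was -0.11, with a 95% interval of -0.34 to 0.12 (limma adjusted p = 0.412). Tspan31, a tetraspanin gene on the opposite strand, shares 19.7% of the exonic bases of Cdk4 and stood at 72.6 ± 11.2, 38.2 ± 3.59 and 64.5 ± 8.27 TPM in the 3 groups (SD, n = 3). The strand setting of the quantification is not given in the sources used here, and without strand the reads of the shared bases cannot be told apart.

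The ratio of Cdk4 to Cdk6, chosen after the values were seen, was 0.897 ± 0.103 in WT c-kit-, 0.456 ± 0.0212 in WT c-kit+ and 1.03 ± 0.0427 in the libraries labelled IRF7-/- (SD, n = 3). As a ratio within a library it does not move with a factor applied to the whole library. The WT c-kit+ libraries, at 0.436, 0.479 and 0.454, were below the other 6. The log2 difference from WT c-kit+ to the labelled libraries was 1.18, with p = 0.1 in an exact two-sided permutation test, the smallest that 3 libraries against 3 allow. The labelled libraries and WT c-kit- overlapped (exact permutation p = 0.2). The summed TPM of both kinases was 311 ± 22.4, 433 ± 21.2 and 479 ± 11.3 over the same 3 groups. The last step, a log2 difference of 0.15, was between -0.0036 and 0.05 under the other scalings, so its direction depends on them.

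The stretch before the start of Cdk4 is shown because Cdk4 was the one member that rose between the c-kit+ groups. It is the RefSeq promoter of GRCm38.p6, the 250 bases before the annotated start at chr10:127063285-127063534 on the plus strand, and capitals mark the E-box CACGTG, which the transcription factor MYC binds.
Cdk4: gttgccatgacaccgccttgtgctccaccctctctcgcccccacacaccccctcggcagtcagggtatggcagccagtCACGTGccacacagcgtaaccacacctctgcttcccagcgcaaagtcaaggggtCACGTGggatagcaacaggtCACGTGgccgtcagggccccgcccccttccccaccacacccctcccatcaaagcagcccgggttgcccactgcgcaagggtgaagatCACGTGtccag
The E-box was chosen for the search after this sequence was seen. It reads the same on both strands, and 4 copies begin at -172, -118, -98 and -11 from the start. In the 32851 mouse promoters of the same kind, 250 bases before to 50 after the start, 7.15% held at least 1 copy and 8 promoters (0.0244%) held 4 or more. Of the 8 members with a promoter in the table (12 windows, as some have more than 1 start), Cdk6 and Cdkn2c also held 1 copy each. Myc itself was 53.9 ± 7.69 TPM in WT c-kit-, 99.1 ± 16.5 in WT c-kit+ and 117 ± 16.3 in the labelled libraries (SD, n = 3). Its step between the WT populations, where Cdk4 did not pass the test, was 0.86 (limma adjusted p = 0.00376), and its step between the c-kit+ groups, where Cdk4 rose, did not pass at 0.25 (limma adjusted p = 0.194). From WT c-kit- to the labelled libraries both were higher, Myc by 1.11 (limma adjusted p = 4.88e-04) and Cdk4 by 0.73 (limma adjusted p = 3.42e-04). A match is a description of letters and was not tested as a binding site. A part of Myc in the level of Cdk4 was not tested either.

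The INK4 inhibitors, which bind CDK4 and CDK6 directly, summed to 201 ± 19.5 TPM in WT c-kit-, 161 ± 22.0 in WT c-kit+ and 59.8 ± 6.23 in the libraries labelled IRF7-/- (SD, n = 3). The member that carried the second step was Cdkn2c, which encodes p18INK4c. It was 90.5, 74.2 and 101 TPM in WT c-kit-, 95.2, 76.7 and 88.7 TPM in WT c-kit+, and 8.90, 15.3 and 6.54 TPM in libraries labelled IRF7-/-. The WT populations overlapped, and every labelled library was below every WT library by a wide gap. The log2 fold change between the c-kit+ groups was -3.04 (SE 0.27, limma adjusted p = 3.08e-04), which is 8.49 times less by mean TPM and the 78th most negative of 13238 genes. Labelled replicate 2 held the highest value of its group, as it did for Ccnd1, Ccnd2, Ccnd3, Cdkn1b and Cdkn2d, along with the highest maturation sum (3180 TPM against 2270 and 2291) and the lowest Kit (70.3 TPM). Between the c-kit+ groups 13 of the 15 maturation genes were lower and 1 higher, against 16.1% and 31.9% of all genes. Their part in the fall of the members was not tested. With each library left out once, the value for Cdkn2c ran from -3.34 to -2.79. Between the WT populations the difference was -0.02, with a 95% interval of -0.34 to 0.29 (limma adjusted p = 0.908). There the maturation sum was higher in each WT c-kit+ library than in each WT c-kit- library. Of its 15 genes, however, 5 were higher and 4 lower (14.0% and 27.6% of all genes).

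The stretch before the start of Cdkn2c is shown because it had the most negative value of the members between the c-kit+ groups on the log2(TPM + 1) scale. By mean TPM Ccnd1 fell slightly more, with 8.84 times less against 8.49. The stretch is the RefSeq promoter of GRCm38.p6, the 250 bases before the upstream of 2 RefSeq starts, at chr4:109666757-109667006 on the minus strand. The GENCODE annotation places Cdkn2c at 4:109660876-109667189, so by that annotation the stretch lies within the gene. It is written 5′ to 3′ along the gene, with an E2F motif in capitals.
Cdkn2c: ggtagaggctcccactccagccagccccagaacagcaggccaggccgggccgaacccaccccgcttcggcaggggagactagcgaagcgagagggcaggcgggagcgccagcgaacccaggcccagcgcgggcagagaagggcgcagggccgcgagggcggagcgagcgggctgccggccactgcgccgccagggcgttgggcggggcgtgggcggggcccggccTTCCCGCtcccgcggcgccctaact
The E2F motif was searched on both strands as TTCCCGC or TTGGCGC or TTGCCGC or TTCGCGC, and the copy begins at -25. Of all promoters 9.57% held one, and among the 8 members it was found in Cdkn2c and in the upstream of 2 starts of Cdkn2a. An interferon regulatory factor motif, GAAA repeated after any 2 bases on either strand, was in none of the members' 12 windows and in 3.44% of all promoters. At a share that low, its absence from 12 windows is no result about the members. Ccnd1 and Ccnd2 had no promoter entry and were not searched for any motif.

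Cdkn2d, which encodes p19INK4d, was the leading INK4 transcript in the labelled libraries. It was 97.8, 88.1 and 107 TPM in WT c-kit-, 73.0, 53.6 and 71.4 TPM in WT c-kit+, and 42.1, 46.3 and 45.9 TPM in libraries labelled IRF7-/-. Each step was downward with no overlap, by -0.57 (SE 0.14, limma adjusted p = 0.0152) between the WT populations and by -0.54 (SE 0.12, limma adjusted p = 0.0116) between the c-kit+ groups. The first call was lost under quantile normalization (limma adjusted p = 0.0548) and with the most abundant genes left out (limma adjusted p = 0.0507). Its share of INK4 TPM was 47.6 to 49.2% in WT c-kit-, 39.3 to 42.0% in WT c-kit+ and 69.3 to 79.1% in the labelled libraries, while that of Cdkn2c was 41.2 to 46.2%, 52.1 to 56.2% and 11.3 to 22.9%.

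Cdkn2a, the tumor suppressor locus that encodes p16INK4a and, in another frame, ARF, was the lowest of the 3. It was 17.0, 17.7 and 10.1 TPM in WT c-kit-, 9.49, 6.08 and 9.98 TPM in WT c-kit+, and 3.70, 5.22 and 5.57 TPM in libraries labelled IRF7-/-. The labelled libraries were below every WT library, and the highest WT c-kit+ library was just under the lowest WT c-kit- library. The log2 fold change was -0.73 (SE 0.26, limma adjusted p = 0.0600) between the WT populations. It was -0.97 (limma adjusted p = 0.0154) without WT c-kit- replicate 3, the library with the high maturation sum. From WT c-kit+ to the labelled libraries it was -0.70 (SE 0.21, limma adjusted p = 0.0337), a call lost without WT c-kit+ replicate 1 or 3 or without labelled replicate 1 or 2, with adjusted p from 0.0580 to 0.103 and log2 fold changes from -0.75 to -0.55. The locus lies at 4:89274471-89294653 of GRCm38 on the minus strand with 2 annotated transcripts, both coding, and 1 value per gene does not separate them.

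Both CIP/KIP members fell at each step. Cdkn1a, which encodes p21 and is a classical p53 target, was 65.8, 108 and 108 TPM in WT c-kit-, 32.6, 40.8 and 25.8 TPM in WT c-kit+, and 16.1, 17.3 and 18.9 TPM in libraries labelled IRF7-/-. No 2 groups overlapped, and WT c-kit- replicate 1 was well below the other two of its group. The log2 fold change was -1.46 (SE 0.24, limma adjusted p = 0.00305) between the WT populations and -0.86 (SE 0.16, limma adjusted p = 0.00536) between the c-kit+ groups.

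Cdkn1b encodes p27, an inhibitor that is high in resting cells. It was 85.5, 80.3 and 76.1 TPM in WT c-kit-, 37.8, 43.4 and 46.5 TPM in WT c-kit+, and 20.7, 25.8 and 23.3 TPM in libraries labelled IRF7-/-. The steps were -0.91 (SE 0.09, limma adjusted p = 3.66e-04) and -0.85 (SE 0.11, limma adjusted p = 0.00132), again with no overlap. Against WT c-kit- the labelled libraries had 3.47 times less Cdkn1b and 5.38 times less Cdkn1a by mean TPM. All 4 of these calls between neighbouring groups held under each alternative run.

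Cdkn1c is no member of the 10 genes but is the third CIP/KIP gene, encoding p57, and it did not follow the other two. It was 0.93, 1.63 and 4.07 TPM in WT c-kit-, 57.2, 44.9 and 50.9 TPM in WT c-kit+, and 12.6, 6.51 and 14.3 TPM in libraries labelled IRF7-/-. It was highest in WT c-kit+, with a log2 fold change of 4.13 (SE 0.34, limma adjusted p = 1.57e-04) from WT c-kit- and -2.15 (SE 0.26, limma adjusted p = 0.00108) to the labelled libraries. The sum of Cdkn1a and Cdkn1b was 174 ± 20.1, 75.6 ± 7.47 and 40.7 ± 3.45 TPM over the 3 groups (SD, n = 3). With Cdkn1c added it was 177 ± 21.1, 127 ± 3.05 and 51.8 ± 4.05 TPM, which shrinks the log2 difference between the WT populations from -1.20 to -0.47. The fourth INK4 gene, Cdkn2b, was at most 1.01 TPM in any library and did not pass the filter in any comparison. Cdkn3, a phosphatase acting on CDKs, was 34.8 ± 2.51, 36.0 ± 3.36 and 29.6 ± 0.134 TPM.

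By role, the D cyclins summed to 367 ± 43.5, 285 ± 47.2 and 186 ± 13.3 TPM in WT c-kit-, WT c-kit+ and the libraries labelled IRF7-/- (SD, n = 3). The 5 inhibitors summed to 376 ± 23.6, 237 ± 14.6 and 100 ± 9.22 TPM. Per TPM of Cdk4 plus Cdk6 there were 1.21 ± 0.136, 0.550 ± 0.0593 and 0.210 ± 0.0237 TPM of inhibitors, a ratio chosen after the values were seen. With Cdkn1c and Cdkn2b counted as well, the ratio was 1.22 ± 0.141, 0.670 ± 0.0796 and 0.234 ± 0.0173. D cyclin transcripts per TPM of both kinases were 0.990 to 1.41, 0.507 to 0.756 and 0.356 to 0.427. None of these ratios overlapped between groups, and each step had p = 0.1 in the exact permutation test, the smallest possible. They compare transcripts and not proteins.

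**Figure D3:**
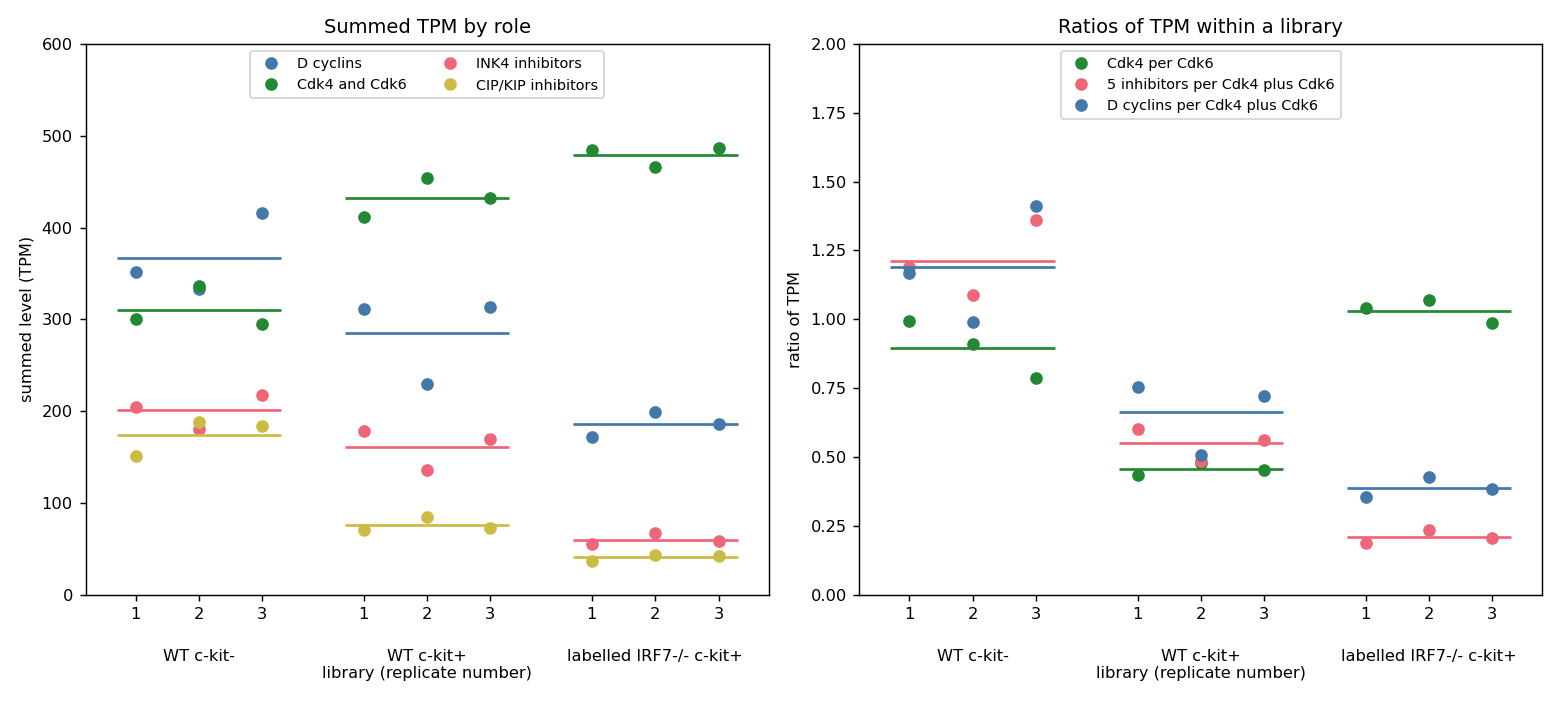
Left, summed level in TPM by role in each of the 9 libraries; right, ratios of TPM within a library. Points are libraries, lines are group means, and the x axis gives the replicate number within each group; the ratio of the 5 inhibitors to Cdk4 plus Cdk6 lies at 1.09 to 1.36 in WT c-kit- and at 0.189 to 0.236 in the libraries labelled IRF7-/-.

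Downstream of the module, the genes that passed the test in a list of 18 replication genes controlled by RB and E2F were all higher in the deposited scaling. Between the WT populations 10 were higher in WT c-kit+ and none lower, where 14.0% of all genes were higher. From WT c-kit+ to the libraries labelled IRF7-/- 16 were higher and none lower, where 31.9% of all genes were higher, and the list's median log2 differences were 0.29 and 0.40, against -0.08 and 0.12 for all genes. Mcm3, a subunit of the replicative helicase, went from 161 to 177 and 302 TPM by group mean, and only the second step passed the test (0.77, SE 0.07, limma adjusted p = 4.13e-04). Mcm2, of the same helicase, was the one to pass both thresholds, at 1.09 from WT c-kit- to the labelled libraries (SE 0.07, limma adjusted p = 4.84e-05). Under 3 other scalings, 11 to 13 were higher and 1 lower between the c-kit+ groups, with medians of 0.26 to 0.31. Of 8 proliferation markers such as Mki67, 2 were higher between the c-kit+ groups, under the 31.9% of all genes, and none under the other scalings. Between the WT populations none was higher as deposited and 2 were under each other scaling.

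RB and the E2F factors themselves were mixed. Of 13 pocket protein and E2F genes, 2 were higher and 5 lower in WT c-kit+ than in WT c-kit- (14.0% and 27.6% of all genes), and 3 to 5 were higher and 3 lower under other scalings. In the labelled libraries 5 were higher and 1 lower than in WT c-kit+ (31.9% and 16.1% of all genes), where other scalings gave 1 to 4 higher and 1 or 2 lower. E2f2, an activating E2F, passed both thresholds in the first comparison and went from 65.5 to 21.3 TPM (-1.60, SE 0.16, limma adjusted p = 3.81e-04) by group mean. Rb1 was 40.8 ± 0.486, 26.8 ± 3.12 and 24.5 ± 2.65 TPM over the 3 groups (SD, n = 3), and its second step of -0.13 did not pass the test (limma adjusted p = 0.398). Of 8 genes of cyclin E, cyclin A and CDK2, 4 were higher and 1 lower in WT c-kit+ than in WT c-kit- (14.0% and 27.6% of all genes), and 1 each way between the c-kit+ groups (31.9% and 16.1%). Cdc25a, a phosphatase that activates CDK2, passed both thresholds in the first of these at 1.35 (SE 0.10, limma adjusted p = 1.12e-04).

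The genes that assemble and activate CDKs (6 tested) had 2 higher in WT c-kit+ than in WT c-kit- (14.0% of all genes) and 3 higher between the c-kit+ groups (31.9%), with none lower, and other scalings left 1 higher in the second case. Of 15 genes for the turnover of cyclins and inhibitors, 5 were higher and 3 lower in the first comparison (14.0% and 27.6% of all genes). Other scalings gave 6 higher and 1 or 2 lower there. In the second, 5 were higher and 1 lower (31.9% and 16.1% of all genes), and none passed both thresholds in either. The 5 of 15 higher in the second are near the 31.9% of all genes, and other scalings gave 1 to 3 higher and 1 lower there. Skp2, which marks p27 for degradation, was 11.2, 10.6 and 19.8 TPM by group mean, with a log2 fold change of 0.84 between the c-kit+ groups (SE 0.08, limma adjusted p = 5.48e-04). It is named here after its values were seen. Among transcriptional regulators of the members (10, 9 and 10 tested), Foxo1 and Foxo3, which encode FOXO factors known to drive Cdkn1b, passed both thresholds as lower in WT c-kit+ than in WT c-kit-, at -1.14 (limma adjusted p = 7.20e-04) and -1.05 (limma adjusted p = 1.24e-04). Foxo1 was low in both, at 0.410 TPM against 2.10 TPM by group mean, and Foxo3 was at 14.0 TPM against 29.9 TPM. Of the regulators, 2 were higher and 4 lower there, near the 14.0% and 27.6% of all genes, and other scalings gave 3 or 4 higher and 3 lower. Between the c-kit+ groups 2 were higher and 2 lower, and 1 and 2 under other scalings, against 31.9% and 16.1% of all genes. Against WT c-kit-, the labelled libraries had Myc higher by 1.11 (limma adjusted p = 4.88e-04) and Foxo3 lower, at -1.15 (limma adjusted p = 9.09e-05).

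**Figure D4:**
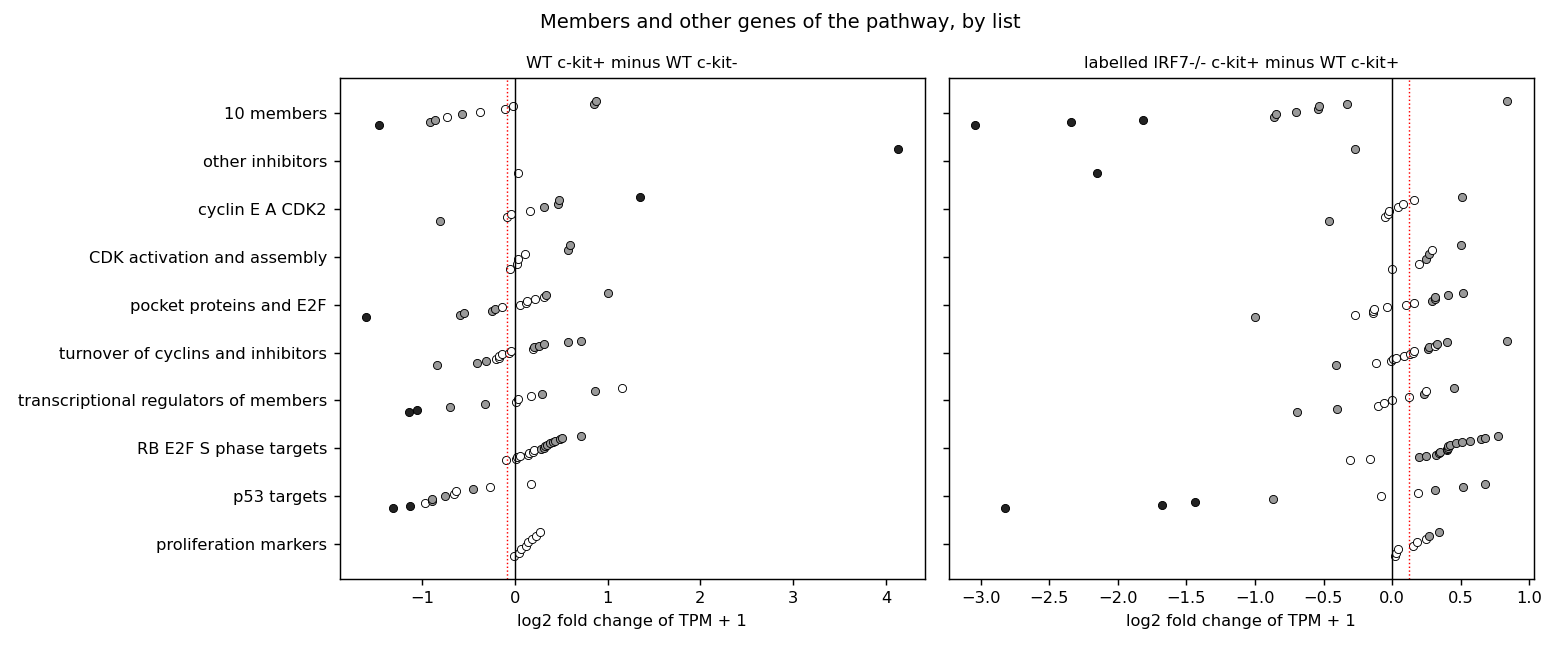
Log2 fold change of TPM + 1 on the x axis for the 10 members and each gene tested of 9 other lists, in the comparison of the WT populations (left) and of the c-kit+ groups (right). Points are genes, filled black past both thresholds, grey past the adjusted p only and open otherwise; the solid line is 0 and the red dotted line the median of all genes. In the right panel 9 of 10 members lie left of 0 and 16 of 18 replication genes pass the test on the right of it.

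In GRCm38 coordinates, Ccnd1 lies at 7:144929931-144939925, Ccnd2 at 6:127125162-127152193, Ccnd3 at 17:47505051-47599691, Cdk4 at 10:127063534-127067920 and Cdk6 at 5:3341485-3531008. Cdkn1a lies at 17:29090976-29100727, Cdkn1b at 6:134920401-134925513, Cdkn2c at 4:109660876-109667189 and Cdkn2d at 9:21288410-21291407. The deposited values are 1 per gene, and which transcripts went into them is not given in the sources used here. The shares that follow count the exons of all annotated transcripts of a gene. Opposite-strand genes share exonic bases with 6 members: LTO1 with 23.4% of those of Ccnd1, AC167363.2 with 7.68% of Cdkn1a, Bysl with 4.11% of Ccnd3, Gm43126 and 9330179D12Rik with 3.95 and 3.91% of Ccnd2, Gm17590 with 2.63% of Cdk6, besides Tspan31 with Cdk4. LTO1 was 31.6 ± 5.24, 28.1 ± 12.7 and 28.0 ± 1.18 TPM over the 3 groups, above Ccnd1 in each (SD, n = 3). AC167363.2 was 11.2 ± 4.95, 2.61 ± 0.559 and 1.31 ± 0.720 TPM, and so fell in the same order as Cdkn1a. What part of a member's reads the shared bases hold was not tested.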

How the data were processed

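The authors deposited 1 table of TPM values for 55536 genes in 9 libraries, made from TruSeq RNA Sample Prep Kit v2 libraries of TRIzol RNA. The aligner, genome build and strand setting are not given in the sources used here, and the paper itself speaks of a microarray. All 55536 gene identifiers are in GENCODE M21 (GRCm38). TPM keep no depth, so depth is unknown, no counting interval is given, and precision is known only from 3 libraries per group. Groups and replicate numbers came from the sample titles.

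From the TPM, limma 3.58.1 (R 4.3.3; lmFit, eBayes with trend) was run on log2(TPM + 1) for genes that reached 1 TPM in 3 or more of 6 libraries, each pair of groups on its own 6 libraries, with Benjamini-Hochberg adjustment over all genes tested. The functions were tested on simulated data. Fold changes are on the log2(TPM + 1) scale, which understates those of low genes. Sums and ratios were compared by exact two-sided permutation tests. Promoters are those of RefSeq (GRCm38.p6), matched by symbol. Members and gene lists were chosen with earlier results of these data known. Named were all 10 members and, per list, up to 3 rises and 3 falls past both thresholds; others are marked or stand beside a member they bear on. Alternatives were no filter, 5 TPM, a pseudocount of 0.1, quantile normalization, median-ratio scaling, the 18 genes that are among the 10 most abundant of any library left out, 1 fit of all libraries, the replicate number as a block, and each library left out. Adding Cdkn1c or Cdkn2b to the inhibitor sums was decided once the data had been seen. Other steps used pandas 2.3.3, scipy 1.17.1 and matplotlib 3.10.9 under Python 3.11.15.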

Additional observations from a re-analysis of the deposited data

How the results depend on the processing

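Over 30 results, 1 per member and comparison, 419 alternative values were computed: 386 kept their direction and their side of an adjusted p of 0.05, 23 lost it, 3 gained it and 7 changed sign. The changes of sign were for values near 0 between the WT populations. Cdk4 (-0.11) was 0.05 under quantile normalization and 0.01 with the most abundant genes left out. Cdkn2c (-0.02) was 0.17 under quantile normalization, 0.08 under median-ratio scaling, 0.10 with the most abundant genes left out, 0.08 without WT c-kit- replicate 3 and 0.06 without WT c-kit+ replicate 2. Without a filter on low values, Ccnd2 lost its call between the WT populations (limma adjusted p = 0.0919) and against WT c-kit- (limma adjusted p = 0.0771), and Cdkn2a between the c-kit+ groups (limma adjusted p = 0.0812), where 25743 to 25970 genes are tested in place of 13238 to 13510. With a filter of 5 TPM, Ccnd2 could not be tested against WT c-kit-. The genes past both thresholds between the c-kit+ groups were 1548, and 1015 with a filter of 5 TPM. Their number over the libraries left out in turn was 1804 to 1997, 1432 to 1599 and 2659 to 2799 in the 3 comparisons.

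Summed TPM moved with the scaling. For Cdk4 plus Cdk6 the log2 difference between the WT populations was 0.48 and became 0.62 under quantile normalization, 0.58 under median-ratio scaling and 0.60 with the most abundant genes left out; between the c-kit+ groups it was 0.15 and became 0.05, 0.01 and -0.0036. The INK4 sum moved from -0.32 to -0.14 under quantile normalization between the WT populations. The CIP/KIP sum moved there from -1.20 to -1.03 under quantile normalization, and between the c-kit+ groups from -0.89 to -1.03 under median-ratio scaling and -1.04 with the most abundant genes left out. Adding Cdkn1c gave -0.47, -1.29 and -1.76 in the 3 comparisons, and adding Cdkn2b moved no sum by more than the spread between libraries. The cause of the moves was not tested beyond what each setting changes.

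Deviations of libraries with equal replicate numbers correlated at -0.059 to 0.260 over the 3 comparisons, and those with different numbers at -0.203 to 0.157. From WT c-kit- to the labelled libraries the values were 0.037 to 0.067 for equal numbers and -0.044 to 0.001 for different ones. Whether equal numbers pair the libraries cannot be told from these values. With the replicate number as a block, 28 of 30 member calls were as before. Ccnd3 gained a call between the WT populations (limma adjusted p = 0.0265) and Cdkn2a lost one between the c-kit+ groups (limma adjusted p = 0.0509). The genes past both thresholds were 1950, 1549 and 2749 with the block and 1916, 1548 and 2738 without it. TPM set no detection limit here, so levels near 1 TPM, such as Ccnd1 and Ccnd2 in the labelled libraries, are known only by their spread.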

Other observations

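Genes activated by p53, the factor that also induces Cdkn1a, passed the test only as lower between the WT populations and were mixed between the c-kit+ groups. Of 11 tested between the WT populations, 6 were lower in WT c-kit+ and none higher, where 27.6% of all genes were lower and 14.0% higher, among them Bbc3, which encodes the cell death protein PUMA, at -1.31 (SE 0.10, limma adjusted p = 1.40e-04), and Sesn2, a stress response gene, at -1.13 (SE 0.12, limma adjusted p = 5.27e-04). Of 9 tested between the c-kit+ groups, 4 were lower and 3 higher in the libraries labelled IRF7-/-, where 16.1% of all genes were lower and 31.9% higher. Past both thresholds there were Btg2, an antiproliferative gene, which went from 93.4 ± 58.2 to 10.9 ± 2.34 TPM (SD, n = 3, log2 fold change -2.82, SE 0.43, limma adjusted p = 0.00242), Trp53inp1 at -1.68 (limma adjusted p = 1.69e-04) and Pmaip1, which encodes NOXA, at -1.44 (limma adjusted p = 0.0159). Bax, Ccng1 and Aen were higher, and other scalings left 2 of the 9 higher. Trp53 itself was higher by 0.45 (limma adjusted p = 0.00321) and Mdm2, its inhibitor and target, was at -0.40 (limma adjusted p = 0.00287). Both are named after their values were seen. Against WT c-kit-, 8 of 11 tested p53 targets were lower in the labelled libraries and 1 higher (28.7% and 30.7% of all genes). Past both thresholds were 5, all lower, with Btg2 the lowest at -3.79 (SE 0.33, limma adjusted p = 1.31e-04).

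For the 7 members past both thresholds in at least 1 comparison, the genes with the most similar profile over the 9 libraries were read from 13961 genes by Pearson's r of log2(TPM + 1). The 9 libraries fall into 3 groups and share their scaling, so r mostly follows the group means and no p is given. Closest to Cdkn2c were Smim5 (r = 0.997), Cybb (r = 0.996), the phagocyte oxidase subunit, which was 348, 280 and 22.9 TPM by group mean, and AC132444.5 (r = 0.993). Ccnd1 was closest to Plcxd2 (r = 0.996), Gm43305 (r = 0.993) and Capn11 (r = 0.991), and Ccnd2 to 4933439C10Rik (r = 0.975), Spred2 (r = 0.972) and Cxxc5 (r = 0.967). Cdkn1a had Mcl1 (r = 0.994), the survival gene, then Rnf122 (r = 0.992) and Brpf1 (r = 0.991). Cdkn1b had AI839979 (r = 0.998), Dyrk1a (r = 0.992) and Hbp1 (r = 0.992). For Cdkn2a the values were lower, with Ube2j1 (r = 0.964), Ddx6 (r = 0.963) and Bicd2 (r = 0.961), and for Cdkn2d they were Myh9 (r = 0.994), Glipr2 (r = 0.992) and Pstpip2 (r = 0.992).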
